A study of Homo sapiens with 10 samples.

Results

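The line made with guide sg1 against RNASE1 was compared gene by gene with the control lines NTC1 and NTC2. Its members were 2 of the 10 libraries of the study, sg1 A and sg1 B, set against 4 control libraries, and they were taken by their column names in the table of raw counts. All 10 libraries came from LS180, an established human colorectal cancer cell line, and the series describes its cells as lines established for CRISPR interference of RNASE1. The controls carried the label NTC, the usual abbreviation for a guide without a target in the genome, and sg2 and sg3 were further RNASE1 guides. No drug was given to any line. Each guide was represented by a single line, so an effect of the guide and an effect of that line cannot be told apart. The labels do not say whether a line was a clone or a pool, nor what letters A and B stand for, and the p-values reflect only how far these libraries scatter, which may be technical. The sg1 line was taken up because its remaining RNASE1 level was the lowest of the 3 guide lines, and that order is a description only.

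RNASE1 encodes pancreatic ribonuclease, the best known member of the RNase A family of small secreted enzymes that cut single-stranded RNA after pyrimidines. It has a signal peptide and normally leaves the cell, while RNH1, the ribonuclease inhibitor, binds and blocks family members that reach the cytosol. In CRISPR interference a guide RNA leads a Cas9 protein without cutting activity to the start of a gene, where it blocks transcription. LS180 cells make mucins and express genes of the intestinal epithelium, and the study asked whether this secreted enzyme also acts on gene expression from inside the cell.

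Library totals ran from 39026605 expected counts in sg1 B to 45050991, with 41231348 in sg1 A. Levels are given as CPM, counts scaled to library size, after TMM normalization. Each log2 fold change is that of sg1 over the mean of NTC1 and NTC2 in 1 edgeR fit with the letter as a block, and a gene was called when its Benjamini-Hochberg adjusted p over 16411 tested genes was under 0.05. All 15 markers of colorectal epithelium stood at 1 CPM or more, with summed levels of 8820 and 8298 CPM in sg1 A and B against 7321 to 8990 CPM in the controls. Of the markers of other cell types, 3 of 10 for fibroblasts, 1 of 9 for endothelium, 2 of 10 for leukocytes and 2 of 9 for an embryonic kidney line reached 1 CPM. Their sums in sg1 were 4.19 and 5.58 CPM for fibroblasts (3.96 to 5.15 in the controls) and 46.1 and 41.3 CPM for leukocytes (43.0 to 47.0).

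RNASE1 fell most clearly. It stood at 16.4 CPM in NTC1 A, 23.7 in NTC1 B, 19.1 in NTC2 A and 22.9 in NTC2 B, and at 1.02 CPM in sg1 A and 1.38 in sg1 B. Both sg1 libraries were far below all 4 control libraries, and the control lines lay close together. The log2 fold change was -4.09 (SE 0.14, edgeR adjusted p = 1.40e-09), which left 5.86% of the control level (95% interval 4.79% to 7.16%). Against NTC1 alone it was -4.05 and against NTC2 alone -4.13, while NTC2 differed from NTC1 by 0.08. In the other guide lines RNASE1 stood at 3.36 and 3.75 CPM in sg2 A and B and at 1.66 and 1.57 CPM in sg3 A and B. The counts behind the sg1 values were 42 in A and 54 in B, against 688 to 1086 in the controls. In RNA from whole cultures, fewer cells expressing a gene and less of its RNA per cell cannot be told apart.

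In GRCh38 the RNASE1 gene (ENSG00000129538, minus strand) spans positions 20801228 to 20803278 of chromosome 14. Its RefSeq promoter and that of OLFM4, the other gene that fell, both hold the letters TATAA on the sense strand shortly before the transcription start, and the stretch from 45 to 16 bases before the start is shown for each, 5′ to 3′, with those letters in capitals.
RNASE1: cctttgtaatctgTATAAggtccacacccc
OLFM4: tcaccactgggcacTATAAgaagcccctgg
The RNASE1 stretch covers chr14:20802860-20802889 on the minus strand and the OLFM4 stretch chr13:53028768-53028797 on the plus strand, both in RefSeq's GRCh38.p14. Each lies inside the first exon of a longer transcript in GENCODE 29. TATAA begins 32 bases before the start in RNASE1 and 31 in OLFM4. Searched on both strands, TATAA was found in 20.4% of 35116 promoter windows of 300 bases, and on the sense strand within the 30 bases shown in 4.10% of them. The second RefSeq start of RNASE1 and the H19 window hold no TATAA on either strand. The promoter of TBX2, the other called gene, was not looked at singly. These matches describe letters only, and the position of the sg1 guide is not used here.

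**Figure D1:**
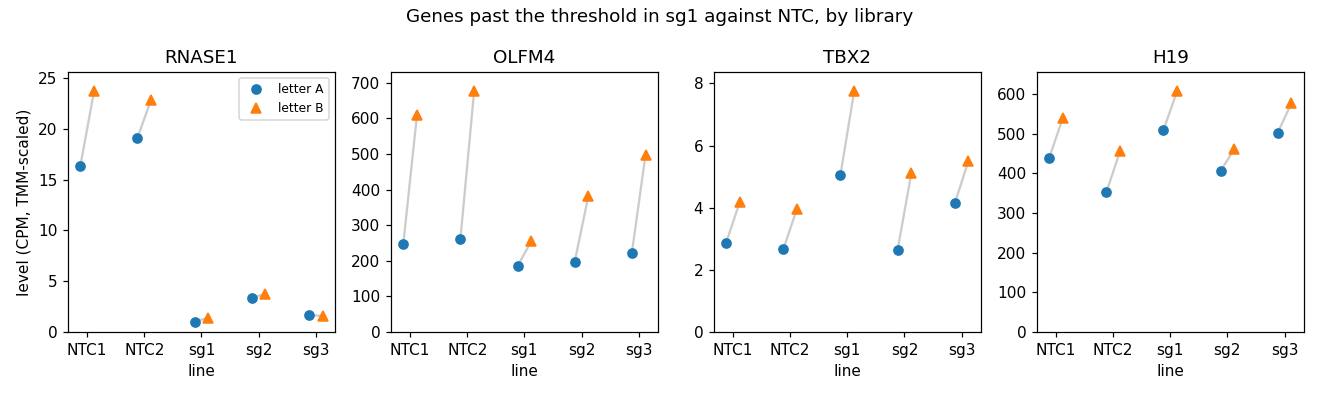
Level in CPM (y axis, linear, from 0) of the 4 called genes in each line (x axis), with circles for letter A and triangles for letter B joined by a line. RNASE1 is near 1 CPM in sg1 against 16.4 to 23.7 CPM in NTC, OLFM4 is lower in sg1 within each letter, TBX2 is above all 4 control libraries, and H19 is above the controls of the same letter only.

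Besides RNASE1, 3 genes passed the test: OLFM4 fell, and TBX2 and H19 rose. With RNASE1 this made 4 called genes (0.0244% of those tested), 2 higher (0.0122%) and 2 lower (0.0122%), and with DESeq2's size factors in the same fit 4 were higher and 2 lower. In all 4 both sg1 libraries lay beyond both control libraries of their own letter, which held for 23.2% of all tested genes in one direction or the other. Only RNASE1 was also called against NTC1 alone and NTC2 alone with the same sign (0.00609%).

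OLFM4 (ENSG00000102837, chromosome 13, positions 53028759 to 53052057, plus strand) encodes olfactomedin-4, a secreted glycoprotein that marks crypt base cells of the human intestine. It stood at 246 and 261 CPM in NTC1 A and NTC2 A against 185 CPM in sg1 A, and at 610 and 677 CPM in NTC1 B and NTC2 B against 255 CPM in sg1 B. The sg1 library was lower within each letter, but sg1 B lay between the A controls, because the level in the controls was far higher in B than in A. The log2 fold change was -0.88 (SE 0.13, edgeR adjusted p = 0.0498), a level of 54.2% of the controls (95% interval 44.5% to 66.0%). It was -0.46 from the A libraries alone and -1.34 from the B libraries alone. Against NTC1 alone the adjusted p was 0.154 and against NTC2 alone 0.0472. OLFM4 was not called in the 6 libraries of sg1 and NTC with the controls as 1 group (edgeR adjusted p = 0.0572). The call ended without NTC1 A, NTC1 B or NTC2 B (adjusted p = 0.0552, 0.133 and 0.0671 in edgeR), and the fold change moved to -1.27 without sg1 A and to -0.53 without sg1 B.

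TBX2 (ENSG00000121068, chromosome 17, positions 61399896 to 61409466, plus strand) encodes a T-box transcription factor that acts mostly as a repressor. Its levels were 2.88 CPM in NTC1 A, 4.2 in NTC1 B, 2.67 in NTC2 A and 3.97 in NTC2 B, against 5.06 in sg1 A and 7.75 in sg1 B. Both sg1 libraries lay above all 4 controls, as in 5.14% of tested genes (4.58% lay below all 4, 9.72% in either direction), and the control lines were nearly level within a letter. TBX2 rose by 0.90 on the log2 scale (SE 0.12, edgeR adjusted p = 0.0290), a 1.87-fold difference (95% interval 1.55 to 2.25). The sg1 value was similar in A alone (0.87) and B alone (0.93). In the 6 libraries of sg1 and NTC with the controls as 1 group TBX2 stayed called (edgeR adjusted p = 0.0192). Leaving out any one of the 6 libraries of sg1 and NTC ended the call (edgeR adjusted p from 0.0592 to 0.162), while the fold change lay between 0.88 and 0.92. TBX2 overlaps TBX2-AS1 on the opposite strand, and the library procedure did not mark strand, so reads of the pair cannot be told apart.

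H19 (ENSG00000130600, chromosome 11, positions 1995176 to 2001470, minus strand) is an imprinted long non-coding RNA and the host of miR-675. It stood at 439 CPM in NTC1 A, 540 in NTC1 B, 352 in NTC2 A and 455 in NTC2 B, and at 509 and 607 CPM in sg1 A and B. The sg1 library was the higher within each letter, yet sg1 A lay below NTC1 B, so the groups overlapped across letters. H19 rose by 0.33 (SE 0.04, edgeR adjusted p = 0.00935), a 1.26-fold difference (95% interval 1.19 to 1.34). The control lines themselves differed by nearly as much: NTC2 stood 0.28 below NTC1 on the log2 scale (edgeR adjusted p = 0.0897). Against NTC2 alone the sg1 value was 0.47 (adjusted p = 0.000965), but against NTC1 alone it was 0.19 (adjusted p = 0.587). With the 4 control libraries as 1 group, so that the spread between control lines entered the error, the call ended (edgeR adjusted p = 0.661), and without NTC1 A it also ended (0.0508).

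With a correction of each library for transcript GC content RNASE1 was the only call, and without the letter as a block it was again the only call. The fold changes of the other 3 were of similar size there: with the GC correction OLFM4 was at -0.86, TBX2 at 0.85 and H19 at 0.28 (edgeR adjusted p = 0.0562, 0.0545 and 0.0715), and without the block they were at -1.03, 0.90 and 0.33 (adjusted p = 0.99991 for each).

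Over all genes at 1 CPM or more the SD of fold changes was no larger for sg1 than between the control lines, but this order depended on level. Among 13036 genes at 1 CPM or more, the SD of the log2 fold change was 0.16 for sg1 over the control mean, and for pairs of single lines 0.18 for sg1 over NTC1, 0.20 for sg1 over NTC2 and 0.22 for NTC2 over NTC1. For these pairs, in the same order, it was 0.33, 0.35 and 0.40 at 1 to 10 CPM. At 10 to 100 CPM it was 0.083, 0.091 and 0.079, and at 100 CPM or more 0.057, 0.066 and 0.049, so there sg1 was slightly farther from each control line. At 1 CPM or more the median absolute log2 fold change was 0.053 for sg1 over the control mean, an average of 2 lines. For pairs of single lines it was 0.057 for sg1 over NTC1, 0.060 for sg1 over NTC2 and 0.052 for NTC2 over NTC1. NTC2 against NTC1 gave 2 calls (0.0122%): AC000120.3 was higher in NTC2 and the splicing factor gene U2AF1 was lower (-1.12, edgeR adjusted p = 0.0377). Against NTC1 alone 4 genes were called for sg1 (0.0244%) and against NTC2 alone 7 (0.0427%). Without adjustment, 1241 genes had a p under 0.05 for sg1 over the control mean (7.56%), 696 higher and 545 lower, against 831 (5.06%) for NTC2 over NTC1 and 821 for uniform p-values.

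**Figure D2:**
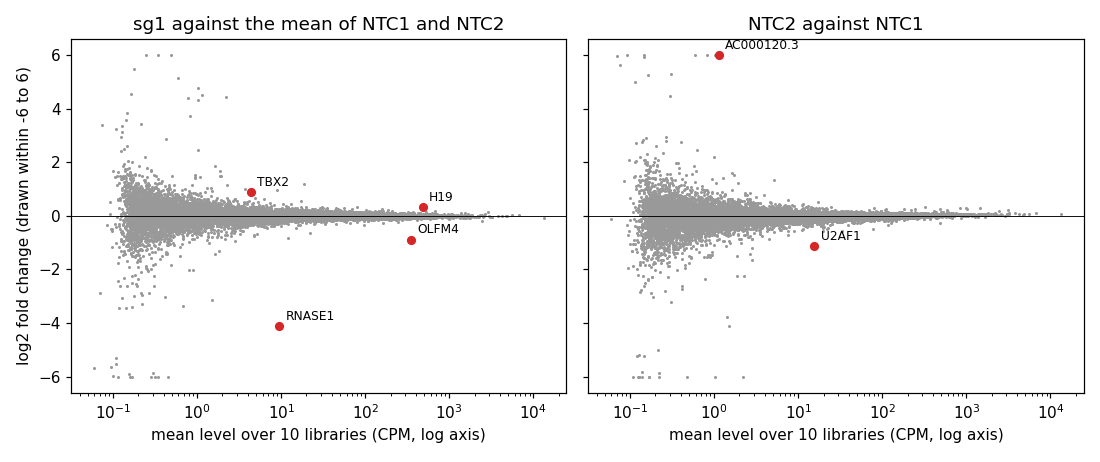
Log2 fold change (y axis, values beyond 6 in either direction drawn at the edge) against mean level over the 10 libraries (x axis, CPM, log scale) for the 16411 tested genes, for sg1 over the control mean (left) and NTC2 over NTC1 (right), with called genes in red. The clouds have a similar width, and RNASE1 stands alone on the left at -4.09 and 9.49 CPM.

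The precision was high for genes of moderate level. The median SE was 0.06 at 1 CPM or more, and for 12004 of those genes (92.1%) the 95% interval allowed at most a 1.5-fold difference up or down. Of 319 tested genes fitted beyond 2-fold, 299 were under 1 CPM, and the other 20 had a mean level of at most 18.5 CPM. RNASE1 was the only call among the 319. Under 1 CPM the median SE was 0.48, and the interval excluded 2-fold differences for 674 of 3375 genes, so smaller changes were not detectable at this depth for most of them.

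Several genes came just short of the threshold, and they were chosen for naming from their values. DKK1, a secreted inhibitor of Wnt signalling, stood at 9.86 and 5.86 CPM in sg1 A and B, against 6.97 and 7.06 CPM in the A controls and 3.06 and 3.61 CPM in the B controls. It was above the controls within each letter, with a log2 fold change of 0.64 (SE 0.11, edgeR adjusted p = 0.0801). PLA2G2A, a secreted phospholipase of Paneth cells, stood at 183 and 256 CPM in sg1 A and B, against 196 and 228 CPM in the A controls and 300 and 324 CPM in the B controls. It was below the controls within each letter at -0.25 (SE 0.04, edgeR adjusted p = 0.0677), with the control lines 0.16 apart. GAGE1, a cancer-testis antigen from a cluster of near-identical copies, stood at 4.04 and 3.76 CPM in sg1 against 0.70 to 1.84 CPM in the controls. That was above all 4 controls at 1.85 (SE 0.32, edgeR adjusted p = 0.0814), and its annotation overlaps GAGE2A on the same strand, so the division of reads between copies is uncertain.

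COMMD3-BMI1 and AC000120.3 also came close, and both are annotated across other genes on the same strand. COMMD3-BMI1, a read-through gene spanning COMMD3 and BMI1, had 15 and 121 counts in sg1 A and B, 9 and 61 in NTC2 and 0 in both NTC1 libraries. AC000120.3, annotated across CYP51A1 and KRIT1, had 30 and 87 counts in sg1, 60 and 52 in NTC2 and 0 in both NTC1 libraries. Within each letter COMMD3-BMI1 was higher in sg1 than in NTC2, with overlap across letters only, while AC000120.3 was lower than NTC2 in A and higher in B, and NTC1 was at 0 for both (edgeR adjusted p for sg1 over the control mean just above 0.05 for COMMD3-BMI1 and 0.0590 for AC000120.3).

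The neighbourhood of the targeted promoter was read next. Within 500 kb of RNASE1 the annotation holds 73 genes, of which 23 were tested, and edgeR called 0 of the 22 besides RNASE1, with 5 at an unadjusted p under 0.05 (7.56% of all tested genes). DESeq2 without its filter called 1, AL163636.2. This gene was the nearest to a call, at 2.28 and 3.45 CPM in sg1 A and B against 1.12, 0.92, 0.85 and 1.21 CPM in NTC1 A, NTC1 B, NTC2 A and NTC2 B. Both sg1 libraries exceeded all controls, and the control lines were level (0.01 apart). Its log2 fold change was 1.47 (SE 0.23, edgeR adjusted p just above the threshold of 0.05). In the other guide lines it stood at 1.23 and 1.71 CPM in sg2 A and B and at 3.15 and 2.57 CPM in sg3 A and B. Over the same control mean it was called in sg3 (edgeR adjusted p = 0.0349) but not in sg2 (edgeR adjusted p = 0.814). AL163636.2 is annotated on chromosome 14 from 20684587 to 20700576, across RNASE4 and ANG on the same strand, and how the 3 genes shared the reads is uncertain.

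RNASE4 and ANG, which encode ribonucleases of the same family and share a promoter region, were at -0.30 (SE 0.13) and -0.32 (SE 0.16), neither of them called. RNASE4 stood at 9.54 and 6.88 CPM in sg1 A and B against 8.99 to 11.4 CPM in the controls, and ANG at 4.14 and 2.92 CPM against 3.80 to 5.13 CPM. For both, sg1 A lay among the controls and only sg1 B lay below all of them. The others at an unadjusted p under 0.05, besides AL163636.2 and RNASE4, were small in size. ARHGEF40 was at 0.23 (SE 0.07) and ZNF219, a zinc finger gene, at 0.12 (SE 0.05), both above all 4 controls, and CCNB1IP1, a ubiquitin ligase gene, was at -0.10 (SE 0.04), below all 4. Neighbours with abundant transcripts, picked by hand, were bounded closely. APEX1, a DNA repair endonuclease gene, was at 0.01 (95% interval -0.07 to 0.09), PNP, a purine salvage enzyme gene, at 0.03 (-0.05 to 0.11), and HNRNPC, an RNA-binding protein gene, at -0.04 (-0.13 to 0.04).

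Of the RNase A family and its inhibitor, 7 genes were tested and RNASE1 alone was called. RNASE6, RNASE7 and RNASE10 were all below 1 CPM and could not be resolved. RNH1 stood at 168 and 167 CPM in sg1 A and B and at 150 to 175 CPM in the controls, with a log2 fold change of 0.06 (95% interval -0.04 to 0.16). The inhibitor's level in sg1 therefore lay within the range of the controls.

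Genes that handle or sense RNA were described from lists, each by its counts and median beside the median over all tested genes, which was 0.00. Over 34 lists 916 different genes were tested, 1 was called higher (H19) and 2 were called lower (OLFM4 and RNASE1). Of these, 100 reached an unadjusted p under 0.05 (10.9%, against 7.56% of all tested genes). The lists were chosen with earlier results of these data known, so such shares are a description only.

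For RNA decay, edgeR called 0 of 49 tested genes, DESeq2 without its filter called 0, and the median was 0.00. An unadjusted p under 0.05 was reached by 2 members, and by 7.56% of all tested genes. CNOT1, the scaffold of the deadenylase complex, was at -0.05 (95% interval -0.12 to 0.02), LSM4 of the decapping-linked Lsm ring at 0.01 (-0.07 to 0.10) and SMG5 of nonsense-mediated decay at 0.01 (-0.07 to 0.08). For RNA sensing and the RNase L pathway it called 0 of 20, with 1 at an unadjusted p under 0.05, 0 by DESeq2 without its filter, and a median of -0.02. For all 20 the 95% interval excluded a 1.5-fold difference. DHX9, a helicase that unwinds double-stranded RNA, was at -0.05 (-0.12 to 0.03), ADAR, the editing enzyme, at -0.01 (-0.08 to 0.06) and TRIM25, which activates RIG-I, at -0.03 (-0.11 to 0.04).

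For interferon-stimulated genes edgeR called 0 of 38 and DESeq2 without its filter called 0, with a median of -0.01 (0.05 in A and -0.04 in B). An unadjusted p under 0.05 was reached by 3 members, and by 7.56% of all tested genes. For 24 of the 38 the 95% interval excluded a 1.5-fold difference, and values ran from -0.56 (IFIT3) to 0.73 (IFIT2). LGALS3BP was at 0.04 (95% interval -0.02 to 0.11) and IFITM3, which restricts virus entry, at -0.03 (-0.12 to 0.07). For cytosolic ribosomal proteins edgeR called 0 of 77, 0 had an unadjusted p under 0.05 and DESeq2 called 0. Their median was 0.00, with -0.06 in letter A and 0.08 in letter B, so the letters went opposite ways.

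**Figure D3:**
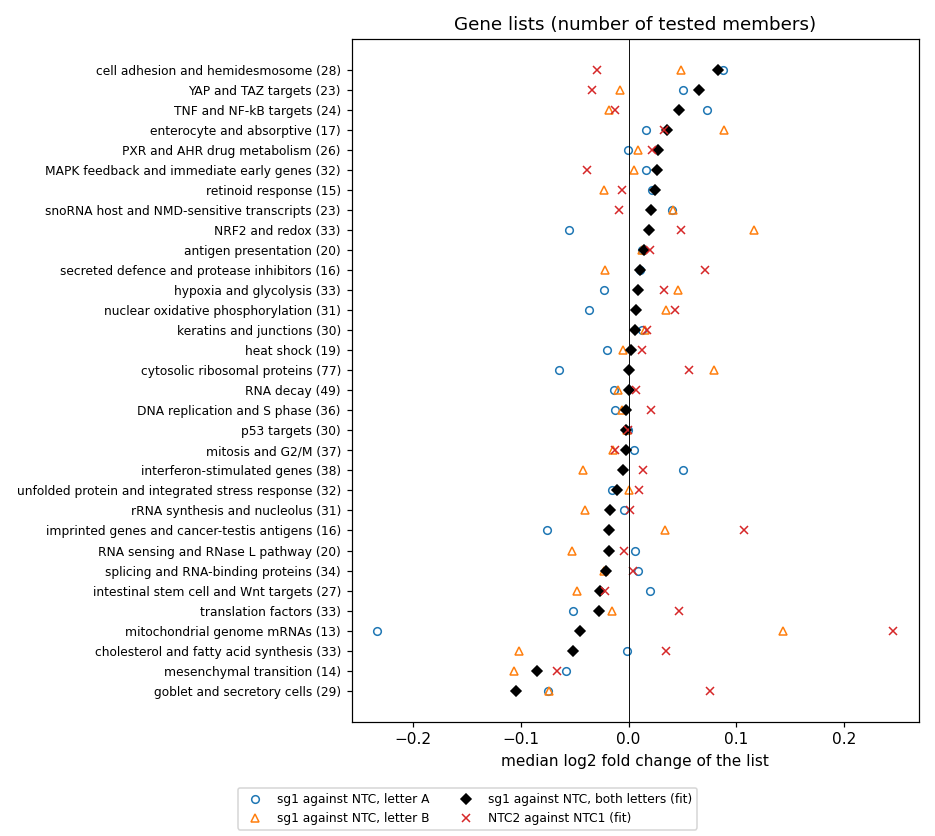
Median log2 fold change (x axis) of each gene list with at least 10 tested members (y axis, number of members in brackets), for sg1 over NTC in both letters (diamonds), in A (circles) and in B (triangles), and for NTC2 over NTC1 (crosses). Adhesion genes have the highest median for sg1 (0.08) and goblet cell genes the lowest (-0.10), and for goblet cell and mitochondrial genes NTC2 over NTC1 lies on the other side of 0.

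Among lists with at least 10 tested members, goblet cell genes had the lowest median and cell adhesion genes the highest. Goblet and secretory cell genes, which encode mucus and the machinery that folds and sugars it, had a median of -0.10 over 29 tested members. Of these 21 were negative, against 8149 of all 16411 tested genes. No member was called by edgeR (0). At an unadjusted p under 0.05, 10 were lower and 0 higher, against 3.32% and 4.24% of all tested genes. The list was chosen with earlier results of these data known, so this is a description only. DESeq2 called 1, AGR2 (DESeq2 adjusted p = 0.0479), with 20 members left without an adjusted p, and without its filter it called 0. Both sg1 libraries lay below both controls of their letter for 10 members and above them for 1, SPINK1, against 11.3% and 11.9% of all tested genes.

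MUC2, the main gel-forming mucin of the colon, stood at 82.8 and 84.7 CPM in the A controls against 61.4 in sg1 A, and at 121 and 150 CPM in the B controls against 111 in sg1 B. It was lower in sg1 within each letter but overlapped across letters, and its log2 fold change was -0.36 (SE 0.07, edgeR adjusted p = 0.191). FCGBP, a mucus protein bound to MUC2, stood at 116 and 117 CPM against 109 in A and at 229 and 239 CPM against 178 in B. That gave -0.25 (SE 0.06, edgeR adjusted p = 0.358), most of it from B. AGR2, a disulfide isomerase needed for mucin folding, stood at 568 and 545 CPM in sg1 against 578 to 662 CPM in the controls, below all 4 of them, at -0.13 (SE 0.04, edgeR adjusted p = 0.422). ATOH1, the transcription factor that commits cells to the secretory lineage, was at -0.28 (SE 0.07) and MUC6, a gastric-type mucin, at -0.10 (SE 0.07). The list's median for NTC2 over NTC1 was 0.08, so the control lines differed among themselves by a similar amount. In sg2 and sg3 over the same controls the list's median was -0.13 and -0.02. FCGBP, AGR2 and MUC6 were taken as the most abundant members, and the others after their values had been seen.

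Genes of secreted defence were divided evenly, with 8 positive and 8 negative values and a median of 0.01 over 16 tested members. At an unadjusted p under 0.05, 5 were lower and 1 higher, against 3.32% and 4.24% of all tested genes. EdgeR called 0, and DESeq2 called 1, PLA2G2A, both with and without its filter. The Paneth cell defensins DEFA5 and DEFA6 were at -0.70 (SE 0.20) and -0.77 (SE 0.21), below the controls in each letter but at only 0.73 to 2.74 CPM in sg1. REG1A, a secreted lectin of regenerating epithelium, stood at 0.05 and 0.20 CPM in sg1 against 0.83 to 1.65 CPM in the controls, below all 4 (edgeR adjusted p = 0.191). The most abundant members were PIGR, the receptor that carries antibodies across the epithelium, at 0.14 (95% interval -0.03 to 0.32), PLA2G2A, and PRSS3, a trypsinogen, at 0.08 (-0.06 to 0.23). On the positive side CTSE, an aspartic protease, was at 0.30 (SE 0.09) and SPINK1, a trypsin inhibitor under 1 CPM, at 0.64 (SE 0.31). The defensins, REG1A, CTSE and SPINK1 were chosen after their values had been seen.

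Among stem cell genes and Wnt targets, OLFM4 was the only edgeR call of 27 tested, and the median was -0.03. DESeq2 called OLFM4 and SMOC2 (DESeq2 adjusted p = 0.0438 and 0.00644), and without its filter SMOC2 alone. At an unadjusted p under 0.05, 5 were lower, OLFM4 included, and 2 higher, against 3.32% and 4.24% of all tested genes. SMOC2, which encodes a matrix protein of stem cells, was at -0.27 (SE 0.05, edgeR adjusted p = 0.143) and stood at 52.1 and 65.0 CPM in sg1 against 61.0 to 84.0 CPM in the controls. LGR5, the receptor that marks cycling stem cells, was at -0.04 (95% interval -0.15 to 0.06) and MYC at -0.01 (-0.09 to 0.06). SMOC2, LGR5 and MYC were chosen after their values had been seen.

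**Figure D4:**
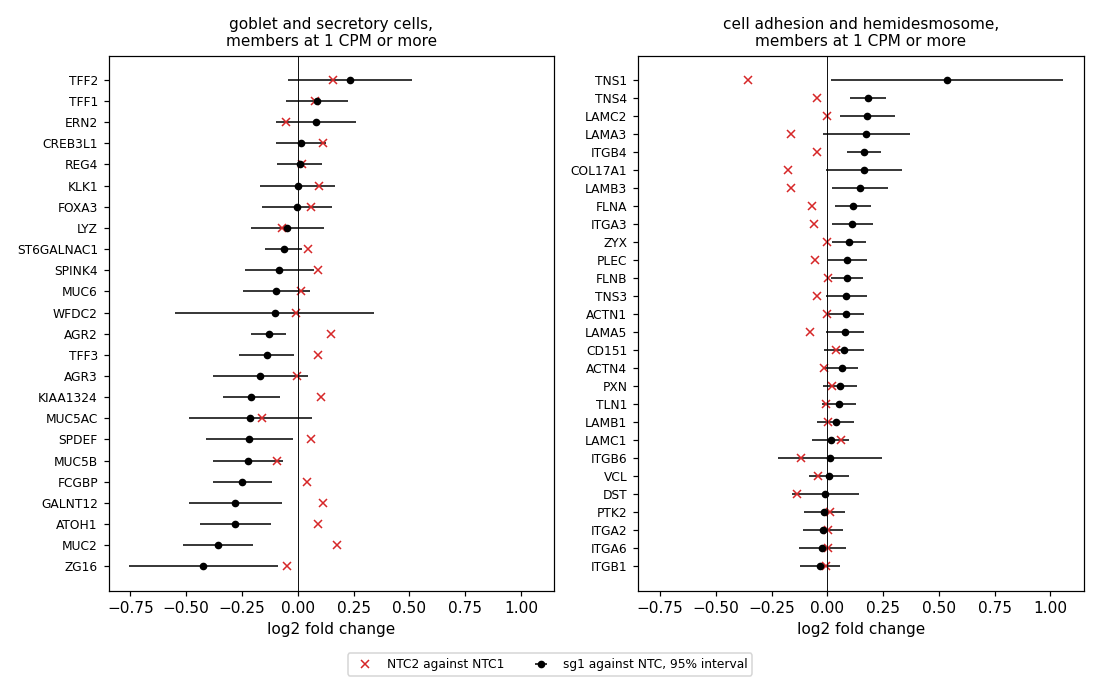
Log2 fold change (x axis) of each goblet cell (left) and adhesion gene (right) at 1 CPM or more, with points and bars for sg1 over NTC and its 95% interval and crosses for NTC2 over NTC1. Most goblet members lie left of 0 (MUC2 at -0.36) and most adhesion members right of it (TNS4 at 0.18, ITGB4 at 0.17). No member passed edgeR's test over all genes.

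Cell adhesion and hemidesmosome genes, which anchor the epithelium to its matrix, had a median of 0.08 over 28 tested members. Of these 23 were positive, against 50.3% of all tested genes. No member was called by edgeR (0). At an unadjusted p under 0.05, 11 were higher and 0 lower, against 4.24% and 3.32% of all tested genes. This list too was chosen with earlier results of these data known, so the comparison is a description only. DESeq2 called 2, TNS4 and ITGB4 (DESeq2 adjusted p = 0.00239 and 0.0438), with 10 members left without an adjusted p. Without its filter it called 1, TNS4. Both sg1 libraries lay above both controls of their letter for 12 members and below for 0, against 11.9% and 11.3% of all tested genes. TNS4, a tensin of focal adhesions, stood at 656 and 661 CPM in the A controls against 752 in sg1 A, and at 593 and 550 CPM in the B controls against 642 in sg1 B. It was higher in sg1 within each letter, at 0.18 (SE 0.04, edgeR adjusted p = 0.203).

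ITGB4, the hemidesmosome integrin chain, stood at 134 and 128 CPM against 146 in A and at 119 and 116 CPM against 133 in B, at 0.17 (SE 0.04, edgeR adjusted p = 0.224). FLNA, an actin crosslinker, stood at 683 and 720 CPM in sg1 against 601 to 667 CPM in the controls, above all 4, at 0.12 (SE 0.04). ITGA6, the partner chain of ITGB4, was at -0.02 (95% interval -0.13 to 0.08), an estimate without the difference seen for its partner, though the difference between the 2 was not tested. ACTN4, another actin crosslinker, was at 0.06 (95% interval -0.01 to 0.14). The list's median for NTC2 over NTC1 was -0.03. Over the same controls, and so not independent of the sg1 value, the list's median was 0.09 in sg2 and 0.08 in sg3. With the GC correction its median for sg1 was 0.04, and without sg1 A it was 0.04. The median GC content of its transcripts was 55.7%, against 48.8% for all tested genes, and for goblet genes it was 53.5%. FLNA, ITGA6 and ACTN4 were taken as the most abundant members, and TNS4 and ITGB4 after their values had been seen.

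Genes of cholesterol and fatty acid synthesis were negative in 27 of 33 tested members, against 8149 of all 16411 tested genes. Their median was -0.05, with -0.00 in A and -0.10 in B. EdgeR called 0, DESeq2 without its filter called 0, and 5 were lower at an unadjusted p under 0.05 (of all tested genes 3.32% were lower). CYP51A1, a sterol demethylase picked after its value was known, was at -0.09 (95% interval -0.17 to -0.02). All 13 tested mRNAs of the mitochondrial genome were negative, with a median of -0.05, but this came from opposite values of -0.23 in A and 0.14 in B. The mitochondrial share of counts was 1.17% in sg1 A and 1.42% in sg1 B, against 1.30% and 1.54% in the A controls and at most 1.39% in the B controls. Thus sg1 A lay below all 4 controls and sg1 B above both B controls, and the control lines differed by a median of 0.25. Of these 13, edgeR called 0 (1 with an unadjusted p under 0.05), and DESeq2 also gave 0. Cell cycle and stress genes lay near 0. DNA replication genes had a median of -0.00 over 36 tested, with 0 edgeR calls, 5 genes at an unadjusted p under 0.05, and 0 calls from DESeq2 without its filter. For p53 targets the median was -0.00 over 30 tested, with 0, 6 and 0 by the same measures. CDKN1A, the main p53 target in cell cycle arrest, was at 0.06 (95% interval -0.02 to 0.13). Mesenchymal genes had a median of -0.09 over 14 tested, with 0, 2 and 0. Of all tested genes 7.56% had an unadjusted p under 0.05.

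Fold changes of sg1 went with the GC content of the transcript. Across 9523 genes at 10 CPM or more Spearman's rho was 0.535 for sg1 over the control mean, 0.198 from the A libraries and 0.531 from the B libraries, and 0.0737 for NTC2 over NTC1. A trend of the same sign was seen in the other guide lines: over the same controls rho was 0.491 in sg3 and 0.175 in sg2. Those values and that of sg1 share the control libraries and are not independent. For sg1 over the mean of sg2 and sg3 rho was 0.237. These are correlations across genes of the same libraries, which share depth and preparation, and genes are not independent replicates. The median log2 fold change of sg1 went from -0.05 in the lowest of 4 equal groups by GC content to 0.04 in the highest. The medians of nuclear chromosomes covered a similar small range, from -0.03 on chromosome 13 to 0.04 on chromosome 19, and that of the mitochondrial genome was -0.05 over 15 genes (0.23 for NTC2 over NTC1). Over the same controls chromosomes 13 and 19 were at -0.04 and 0.03 in sg3 and at -0.01 and 0.01 in sg2. In 314 windows of 40 neighbouring genes the sg1 medians lay between -0.07 and 0.07 (SD 0.03), against -0.04 to 0.04 (SD 0.02) for NTC2 over NTC1. The part of GC content in the single-gene and list values was not tested beyond the corrected fit.

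**Figure D5:**
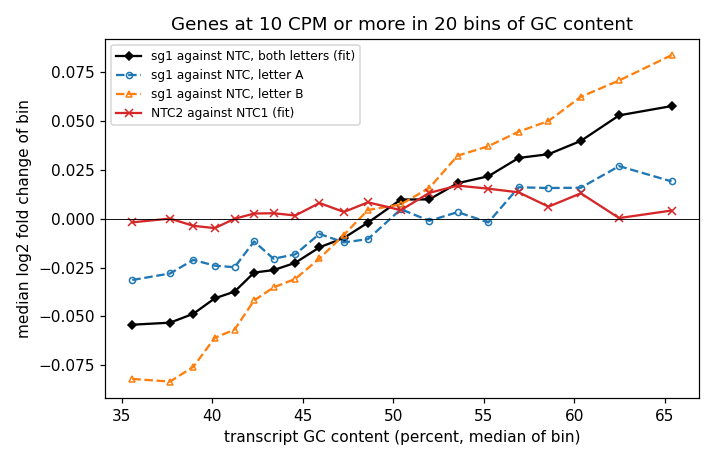
Median log2 fold change (y axis) of genes at 10 CPM or more in 20 bins of transcript GC content (x axis, percent), for sg1 over NTC in both letters (diamonds), letter A (circles) and letter B (triangles), and for NTC2 over NTC1 (crosses). The sg1 line climbs with GC content, more steeply in B than in A, and the control line stays near 0.

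Finally sg1 was compared with the mean of sg2 and sg3, which share the target. EdgeR called 4 genes (0.0244%), 3 higher (0.0183%) and 1 lower (0.00609%) in sg1. GAGE1 stood at 4.04 and 3.76 CPM in sg1, 0.49 and 0.02 in sg2 and 1.59 and 1.55 in sg3, with the sg1 libraries highest of all lines (2.63, SE 0.34, adjusted p = 0.0376). RSC1A1, a regulator of a glucose transporter whose single-exon gene lies inside DDI2 on the same strand, stood at 2.79 and 2.43 CPM in sg1, 6.04 and 5.58 in sg2 and 5.54 and 7.53 in sg3. It was lowest in sg1 (-1.23, SE 0.18, edgeR adjusted p = 0.0410), and the controls, at 3.28 to 6.01 CPM, also lay above it (-0.76, adjusted p = 0.354). For OLFM4, TBX2 and H19 the difference between sg1 and the other guide lines was -0.45 (95% interval -0.73 to -0.17), 0.57 (0.31 to 0.84) and 0.20 (0.12 to 0.29), and edgeR's adjusted p was 0.918, 0.480 and 0.301. Over the control mean OLFM4 was at -0.57 in sg2 and -0.29 in sg3, TBX2 at 0.15 and 0.50, and H19 at -0.03 and 0.29. Among these values only that of H19 in sg3 was called (edgeR adjusted p = 0.0260). Thus none of these 3 genes was shown to differ between sg1 and the mean of the other guides over all genes, nor to be alike in the guide lines.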

How the data were processed

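RNA-seq was done on 10 libraries of LS180 lines. The deposited values are RSEM expected counts for 58870 genes. The submitters' processing notes list the build hg38 and the tools CASAVA 1.8.2, FastQC 0.11.2 and TopHat2 2.0.8, without their roles. Poly(A) RNA was captured and cDNA made by random priming without strand marking, per the labels' protocols. RSEM divides reads that fit several genes, so overlapping genes and near-identical copies have uncertain counts. Of the values 7.12% were not whole, and counts were rounded before testing. Positions come from GENCODE 29 on GRCh38 (58597 identifiers matched) and promoters from RefSeq GRCh38.p14.

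All 10 libraries entered 1 quasi-likelihood fit in edgeR 4.0.16 (R 4.3.3), with 5 line means, the letter as a block, TMM and filterByExpr, two-sided. Contrasts were sg1 minus the mean of NTC1 and NTC2, sg1 minus each of them, NTC2 minus NTC1, and sg1 minus the mean of sg2 and sg3. In the same fit sg2 and sg3 were each set against the mean of NTC1 and NTC2. SE and 95% intervals come from the F statistic. Fold changes from single letters beside list medians are differences of log2(CPM + 0.5). Intervals cover the fitted spread between libraries. The letters pair the libraries: deviations from line means correlated by 0.483 to 0.779 in all 10 pairs of lines over 9527 genes at 10 CPM or more. Over all 16411 genes tested they did so by over 0.1 in 8 of 10 pairs. The A and B libraries of sg1 differed by 10.7 times the sampling variance, so they were kept as separate libraries.

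Alternatives were no block, the 6 libraries of sg1 and NTC alone, size factors of DESeq2 1.42.0 in edgeR, DESeq2 itself, other filters, a GC correction, single letters and leaving out each library. DESeq2 without independent filtering was added after seeing the data. The fits were tested on simulated data. The members, lists and rule for named genes were chosen with earlier results of these data known. The rule took RNASE1, called genes at 1 CPM or more, up to 4 called members of each list or else its 3 most abundant members, and genes called between sg1 and the other guides at 1 CPM or more. Set tests were not run.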

Additional observations from a re-analysis of the deposited data

Results flagged for a closer look

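For 4 genes the change in sg1 differed from that in the other RNASE1 guide lines by a test of the difference itself (edgeR, sg1 against the mean of sg2 and sg3). GAGE1 was higher in sg1 by 2.63 on the log2 scale (adjusted p = 0.0376) and RSC1A1 was lower, at -1.23 (adjusted p = 0.0410). The read-through gene COMMD3-BMI1 was fitted at 5.82 (edgeR adjusted p = 0.0376), with 0.36 and 3.10 CPM in sg1 A and B, 0 and 0.75 CPM in sg2 A and B and 0 in both sg3 libraries. AC004832.3, annotated across SEC14L2 and MTFP1 on the same strand, was fitted at 8.15 (edgeR adjusted p = 0.0396), a value that depends on the prior count. It stood at 0.99 and 0.51 CPM in sg1 A and B and had 0 counts in the 4 libraries of sg2 and sg3. Against a floor of 3 counts per library its mean in sg1 was at least 10.8-fold higher, which covers counting error alone. The controls had 0 to 0.52 CPM, and sg1 B lay within that range. All 4 genes share sequence or annotation with others, and the part of read division in these values was not tested. Leaving out NTC1 B ended all 4 calls.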

How the results depend on the processing

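Counts of called genes depended on the processing, and RNASE1 did not: it stayed called in every edgeR setting run, at -4.00 to -4.18 when 1 library was left out, and DESeq2 gave it no adjusted p unless independent filtering was off (-4.10). Letter A and letter B pair the libraries, and with no replicate block sg1 against NTC gave 0 higher and 1 lower, NTC2 against NTC1 gave 0, sg1 beyond the controls of its letter 1, and sg1 against the other guides 0. With the GC correction these were 0, 1, 0, 1 and 0. The 6 libraries of sg1 and NTC alone gave 10 higher and 6 lower, 12 for NTC2 against NTC1, 6 against each control line alone, 12 beyond the controls and 2 within 500 kb of RNASE1 (RNASE1 included, here and in the later counts near it), and with NTC as 1 group 1 was lower. DESeq2's size factors gave 4 higher and 2 near RNASE1. DESeq2 gave 11 higher and 6 lower, 5, 2 against each line, 17 beyond the controls and 0 near RNASE1, leaving 12727 genes, RNASE1 among them, without an adjusted p. Without independent filtering it gave 9 higher, 5, 2, 10 and 2. With no filter on low counts edgeR gave 91 higher and 79 lower, 144, 51, 108, 128 against the other guides and 2 near RNASE1. At 1 CPM or more it gave 5 higher, 7 beyond the controls, 1 against the other guides and 2 near RNASE1. Letter A alone gave 7 higher and 9 lower, and letter B alone 6 and 4, with 17 against the other guides.

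Leaving out 1 library gave 0 (without NTC1 A) to 15 (without sg1 A) higher and 1 (without NTC1 A or NTC1 B) to 6 (without sg1 B) lower, with 9 higher without sg1 B, 5 lower without sg1 A and 1 higher without NTC1 B or NTC2 B. Ranges were 1 to 9 for NTC2 against NTC1, 1 to 7 against each line, 1 to 12 beyond the controls, 0 (without NTC1 B) to 45 (without sg1 A) against the other guides and 1 to 2 near RNASE1 with RNASE1 included (the further gene, without sg1 A, was AL163636.2). A lone library was assumed to vary like the others. The cause of these shifts was not tested. Beside these, OLFM4, TBX2 and H19 kept their sign in every setting run. Sign changed for AL138752.2 (-0.36), FAM220A (-1.28) and U2AF1 (-0.13) from letter B alone and for FAM220A on leaving out 1 library (-0.39 without sg1 A to 6.21 without sg1 B). For list medians, 431 values moved by no more than their spread and 147 by more. That spread was the SD of only 2 values, the letter A and letter B medians, and differed widely between lists. For goblet genes these were -0.0745 and -0.0744, so almost any shift counted, against -0.06 and 0.08 for cytosolic ribosomal proteins. The counts therefore do not measure how stable the lists were.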
